A study of Mus musculus with 4 samples.

Results

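ATAC-Seq measures where the Tn5 transposase can cut chromatin, and a peak is a stretch with more cuts than its surroundings. The 2688 regions described here were the strongest sites under 1500 bp wide that all 4 libraries of the series had in common. They were chosen by the authors' fold, a ratio of signal at a peak's summit to local background within the library. In each library the 5000 summits with the highest fold on the autosomes and chromosome X were taken, their intervals were merged across libraries where they shared at least 1 bp, and a merged region was kept if it was under 1500 bp wide and held such a summit in all 4 libraries. These members are a small part of the 80271 merged regions with a summit in every library and of the 137553 with a summit in at least 2. Because the fold chose the members, their folds and the order of their folds are given as a description, with no test.

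The cells were sorted from mouse bone marrow and are labelled long-term hematopoietic stem cells (ltHSC), whereas the study's text speaks of hematopoietic stem and progenitor cells. Both controls carry the label WT and, by the study's methods, were Cpt1a fl/fl. The KO mice had the same floxed allele deleted by Vav1-Cre, which acts across the hematopoietic system and not in stem cells alone. All were on a C57BL/6, CD45.2 background, and the methods give adult mice of 8 to 12 weeks and of both sexes. There were 2 libraries per genotype, and nothing in the labels says that they came from separate animals. An exact permutation test of 2 libraries against 2 cannot go below p = 0.33 (two-sided), so no such test between genotypes can pass a threshold of 0.05 here. The lists hold no read counts, and the depth of each library is therefore unknown.

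Chromatin at an active gene start is kept open by factors that bind short sequences near it, and starts rich in CpG are open in most cell types. NFY binds CCAAT boxes, the SP and KLF families bind GC boxes, and NRF1, YY1, CRE-binding factors and the ETS family bind many starts of genes that every dividing cell uses. Enhancers, which lie away from gene starts, are more often open in some cell types and closed in others, and GATA, RUNX and PU.1 factors are known for their part at such elements in blood.

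8 gene starts that lie in members show the kind of sequence these sites hold. Each line below is the RefSeq window (GRCm38.p6) from 250 bases before to 50 bases after a listed start, read 5′ to 3′ on the gene's strand, and capitals mark matches on either strand to any of 6 motifs: ETS (CCGGAAG), NFY (CCAAT), NRF1 (GCATGCG), CRE (TGACGTC), SP/KLF (GGGCGG) and YY1 (AAGATGG). Nsfl1c, which encodes a cofactor of the p97 ATPase (chr2:151493932-151494231, plus strand), had the 19th strongest member, and its window holds an NFY and an SP/KLF match that overlap.
Nsfl1c: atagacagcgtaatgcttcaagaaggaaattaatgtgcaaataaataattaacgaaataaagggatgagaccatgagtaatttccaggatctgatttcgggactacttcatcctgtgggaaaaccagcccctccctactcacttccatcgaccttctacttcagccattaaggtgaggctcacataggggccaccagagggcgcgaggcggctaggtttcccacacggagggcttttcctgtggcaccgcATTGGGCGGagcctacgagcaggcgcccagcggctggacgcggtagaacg
Psma2, a subunit of the 20S proteasome (chr13:14612992-14613291, plus strand), and Mrpl32, a protein of the mitochondrial ribosome (chr13:14612988-14613287, minus strand), start on opposite strands in a single member, so their windows are nearly the reverse complement of each other. Counted on both strands, the window of Psma2 holds 5 NRF1 matches, since CGCATGCG matches on each strand, and 1 each of NFY, SP/KLF and YY1.
Psma2: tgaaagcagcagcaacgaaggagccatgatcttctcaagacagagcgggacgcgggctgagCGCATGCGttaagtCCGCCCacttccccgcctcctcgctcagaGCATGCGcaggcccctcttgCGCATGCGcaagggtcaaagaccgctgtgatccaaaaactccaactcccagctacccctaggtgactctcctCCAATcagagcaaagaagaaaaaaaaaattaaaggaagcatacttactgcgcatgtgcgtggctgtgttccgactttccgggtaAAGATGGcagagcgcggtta
Mrpl32: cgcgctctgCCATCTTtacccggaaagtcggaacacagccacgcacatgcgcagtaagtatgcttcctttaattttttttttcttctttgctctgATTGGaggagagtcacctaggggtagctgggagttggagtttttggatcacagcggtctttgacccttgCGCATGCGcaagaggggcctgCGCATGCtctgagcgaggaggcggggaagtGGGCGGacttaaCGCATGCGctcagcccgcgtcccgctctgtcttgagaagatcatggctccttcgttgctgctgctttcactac
Ndufb3, a subunit of respiratory complex I (chr1:58586147-58586446, plus strand), the ribosomal protein gene Rpl37 (chr15:5116363-5116662, plus strand) and the mitotic cyclin gene Ccnb1 (chr13:100786437-100786736, minus strand) are shown as the best placed starts of 3 gene lists described below. The window of Rpl37 holds 2 ETS matches, and that of Ccnb1 holds 3 of SP/KLF and 2 of NFY.
Ndufb3: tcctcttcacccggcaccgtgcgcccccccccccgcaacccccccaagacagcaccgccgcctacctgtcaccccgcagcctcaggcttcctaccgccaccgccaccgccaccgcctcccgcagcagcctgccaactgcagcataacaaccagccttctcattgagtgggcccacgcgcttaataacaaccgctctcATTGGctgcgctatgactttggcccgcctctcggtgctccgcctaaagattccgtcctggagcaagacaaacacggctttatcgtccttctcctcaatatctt
Rpl37: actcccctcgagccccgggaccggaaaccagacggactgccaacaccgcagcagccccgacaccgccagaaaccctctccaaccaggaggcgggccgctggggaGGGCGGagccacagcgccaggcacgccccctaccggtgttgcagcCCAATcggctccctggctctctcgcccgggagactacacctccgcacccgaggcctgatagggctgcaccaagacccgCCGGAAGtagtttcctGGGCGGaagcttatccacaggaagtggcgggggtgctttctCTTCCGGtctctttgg
Ccnb1: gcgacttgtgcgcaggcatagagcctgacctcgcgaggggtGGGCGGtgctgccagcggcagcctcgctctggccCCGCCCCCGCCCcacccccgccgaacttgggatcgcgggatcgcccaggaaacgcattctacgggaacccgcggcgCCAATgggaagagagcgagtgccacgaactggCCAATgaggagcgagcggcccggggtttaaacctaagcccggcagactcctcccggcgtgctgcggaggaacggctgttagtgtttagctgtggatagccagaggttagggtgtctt
Akr1a1, an aldo-keto reductase (chr4:116651625-116651924, minus strand), and Lztr1, an adaptor for protein ubiquitination (chr16:17508962-17509261, plus strand), had the members with the widest rank gap in favor of the KO and of the control libraries. The window of Akr1a1 has 50.0% G+C and 11 CpG, and that of Lztr1 63.3% and 21.
Akr1a1: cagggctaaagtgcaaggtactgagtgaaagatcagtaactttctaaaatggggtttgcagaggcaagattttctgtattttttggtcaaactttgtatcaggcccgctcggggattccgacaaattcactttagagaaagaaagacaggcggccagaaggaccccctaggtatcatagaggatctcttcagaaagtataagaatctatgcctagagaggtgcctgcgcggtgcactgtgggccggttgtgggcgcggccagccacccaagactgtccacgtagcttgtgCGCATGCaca
Lztr1: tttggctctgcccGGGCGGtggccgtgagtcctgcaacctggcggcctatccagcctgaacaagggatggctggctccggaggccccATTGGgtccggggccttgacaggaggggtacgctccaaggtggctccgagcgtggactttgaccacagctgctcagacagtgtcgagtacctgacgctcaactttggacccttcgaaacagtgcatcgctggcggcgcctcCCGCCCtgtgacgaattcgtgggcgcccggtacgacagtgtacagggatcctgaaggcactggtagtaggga

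The members were wide and strong compared with the lists they came from. Their fold had a median of 21.4 and 20.9 in control 1 and 2, and of 21.5 and 19.9 in KO 1 and 2. Over all summits of the same lists the medians were 3.53 and 3.56 in the controls against 3.48 and 3.65 in the KO libraries. The lowest fold that entered the 5000 was 17.8, 17.5, 17.8 and 16.5 in the same order. The −log10 p of the members was lowest in KO 2, with a median of 116, while KO 1 had 173 and the controls had 185 and 191. Merged widths ran from 134 to 1497 bp with a median of 985 bp, while the other 77583 regions of all 4 libraries had a median of 511 bp.

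At the width limit the nearest regions on either side had these folds. Just inside it were the regions at Golga7 (1497 bp), with 19.4 and 17.8 in the controls against 18.6 and 18.9 in the KO libraries, Htt, the huntingtin gene (1496 bp), with 18.8 and 18.8 against 18.6 and 17.1, and Hic2 (1492 bp), with 19.0 and 22.2 against 20.2 and 19.7. Just outside it were those at Anapc7, a subunit of the anaphase-promoting complex (1501 bp), with 20.1 and 18.6 against 18.0 and 18.0, Mettl9 (1503 bp), with 18.2 and 18.4 against 23.8 and 20.0, and Arl15 (1504 bp), with 22.3 and 20.6 against 19.4 and 19.5. In all, 46 regions met every other part of the rule and were 1500 bp or wider.

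Most members lay at the end of a gene, which here means either the first or the last base of a RefSeq gene. Of the 2688, 2287 (85.1%, exact 95% binomial interval 83.7 to 86.4) were within 1 kb of a gene end and 2168 (80.7%) overlapped one. Of the other regions of all 4 libraries, 25.5% were within 1 kb. The nearest end belonged to a protein-coding gene for 2064 of the 2287 and to a long noncoding RNA for 179. Small RNA genes made up a few more, with 9 tRNA genes, 5 miRNA genes and Rpph1, the RNA of RNase P, which shares its member with the start of the DNA repair gene Parp2. That member, named after its values were seen, had folds of 24.4 and 23.3 in the controls against 23.4 and 21.6 in the KO libraries.

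The remaining 401 members (14.9%) were over 1 kb from any gene end, 271 of them inside a gene and 130 outside genes. Their distance to the nearest end had a median of 8288 bp, and 178 were over 10 kb away. A listed start lay in 114 of them, since a gene can have starts inside its RefSeq span. Members were densest on chromosome 11, with 1.72 per Mb, and sparsest on chromosome X, with 0.375 per Mb. Chromosome X also had the fewest per 100 protein-coding genes (6.63, from 64 members), where chromosome 16 had the most (16.3). The longest stretch without a member, 27.1 Mb on chromosome X, lay between the one nearest 2610002M06Rik and the one nearest Nxf2, and the median spacing was 333231 bp.

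The very strongest sites were of another kind. Members were ordered by their sum of ranks over the 4 libraries (rank 1 being the highest fold). The order was cut just before the first member within 1 kb of a gene end, which left 17 members ahead of it. That all 17 lay over 1 kb from a gene end is therefore set by the cut. The closest of them was 3943 bp away. Of the 17, 13 were outside genes and 4 inside. They were narrow, with a median width of 329 bp (134 to 847 bp), and the edges called in the 4 libraries differed by a median of 6 bp. Among the members in places 18 to 250, 84.1% were within 1 kb of a gene end, the median width was 920 bp and the edges differed by a median of 189 bp. Highest in every library was a region of 167 bp on chromosome X (chrX:143482976-143483142), 35224 bp from Pak3, a kinase gene, with folds of 76.6 and 77.1 in the controls against 79.9 and 78.9 in the KO libraries. Its edges agreed to 3 bp, and its rank was 1 in all 4 libraries.

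Behind it came a region on chromosome 10, 16595 bp from the snoRNA gene LOC115487525, with folds of 63.1 and 56.2 in the controls against 54.4 and 49.3 in the KO libraries. Next was a region on chromosome 2, 12892 bp from Abcb11, the bile salt exporter gene that is known from liver, with 47.4 and 52.2 against 48.8 and 49.1. By fold the genotypes overlapped at Abcb11 and did not at LOC115487525, where both controls were higher. By rank they overlapped at LOC115487525 too (2 and 2 in the controls against 2 and 4 in the KO libraries). A region 32067 bp from Eea1, an early endosome gene, had 46.6 and 46.8 in the controls against 53.6 and 51.8 in the KO libraries, and both KO values were higher. The region farthest from any gene, 506318 bp from Gm32658, stood in place 7 with folds of 44.4 and 47.2 in the controls against 46.6 and 43.9 in the KO libraries.

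The other sites of the first 12 places lay 56723 bp from 4933402J10Rik, 138377 bp from Gm6863, 61963 bp from Ccnh, 22191 bp from Olfr369-ps1 and 64798 bp from Gm30405, and inside Gphn and Jarid2. The site in Jarid2, a partner of the Polycomb complex, had 43.9 and 43.1 in the controls against 34.4 and 33.2 in the KO libraries, so the groups did not overlap in fold although its ranks did (12 and 12 against 16 and 12). With each library's folds divided by their median over the members, the log2 difference (KO minus control) was below 0 in 12 of the 17, with a median of −0.13, and in 1353 of all 2688 members (50.3%). By rank, which is relative to the other members of the same library, 3 of the 17 had both KO libraries first, 3 had both controls first and 11 overlapped. Of all regions of 4 libraries over 1 kb from a gene end, 18.4% had the KO libraries first and 19.4% the controls. Rank and fold differed in direction at Cd209a and Rimbp3, which were KO first by gaps of 1 and 2 places. Both controls had the higher folds there, with log2 differences of −0.21 and −0.069. At Eea1, the remaining KO first site, both KO folds were higher, and at the control first sites both control folds were higher. The lowest log2 difference of all members, −0.62, was at LOC115489968, a further one of the 17 sites. It was chosen after its values were seen, and had 46.2 and 51.2 in the controls against 35.2 and 27.3 in the KO libraries. The strongest member at a gene end was in place 18, where Parp6, a gene of the PARP family, and the noncoding Gm51709 start. This one was likewise named after its values were seen, and had folds of 32.6 and 28.3 in the controls against 30.3 and 31.2 in the KO libraries.

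**Figure D1:**
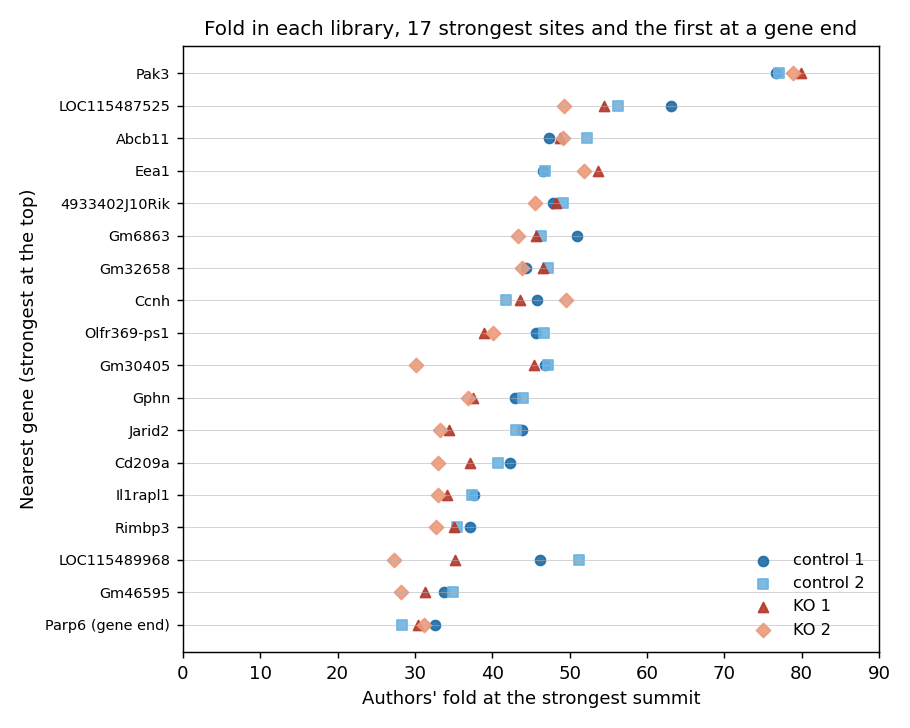
Authors' fold (horizontal axis, a ratio without unit) at the strongest summit of each of the 18 highest placed members, 1 line per member named by its nearest gene and 1 symbol per library. The 17 upper sites are over 1 kb from a gene end, and Parp6 is the first at one. The symbols of control and KO libraries mix at Abcb11 and lie apart at LOC115489968.

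Narrow members in general were mostly of this kind. Of the 39 members under 450 bp, 34 were over 1 kb from a gene end, and their edges differed between libraries by a median of 14 bp against 197 bp for the wider members. The 367 members of 450 bp or more over 1 kb from an end were closer to the rest, and the plot of fold against width shows them among those at gene ends. Beyond the 17 sites no member reached a fold above 38.9 in any library.

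**Figure D2:**
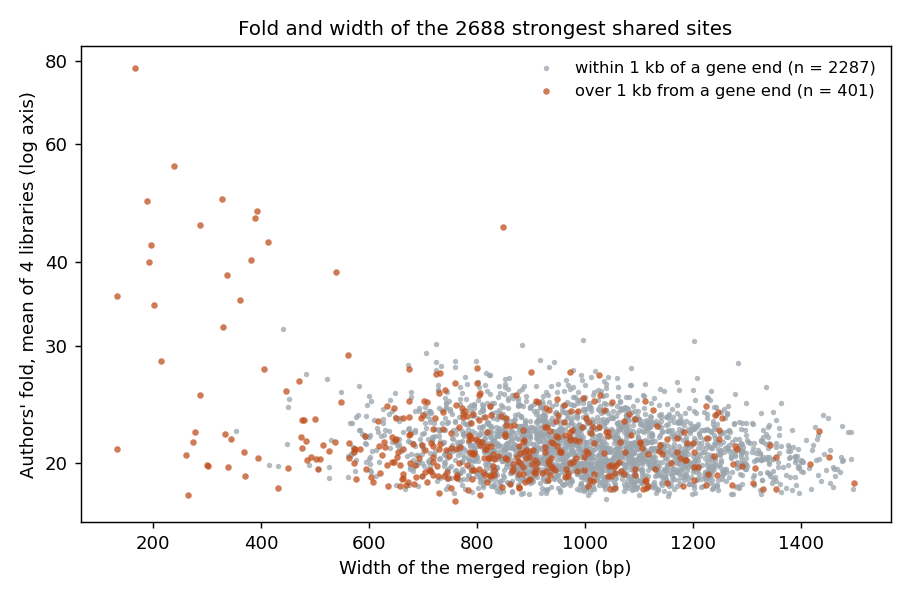
Mean authors' fold over the 4 libraries (vertical axis, logarithmic) against the width of the merged region in bp for the 2688 members, gray for the 2287 within 1 kb of a gene end and orange for the 401 farther away. Most points with a mean fold above 30 are orange, and most of those are under 450 bp wide.

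At gene starts, the strongest summit sat just upstream of the start in every library. Starts with their strand are listed for all chromosomes but chromosome 18 in the table used, and 2015 of the 2612 members off that chromosome (77.1%) held at least 1. In the 1439 members with exactly 1 listed start, the strongest summit lay a median of 46 and 48 bp upstream in the controls against 47 and 48 bp upstream in the KO libraries. From 70.3% to 71.9% of these summits lay in the 200 bp before the start. Within a member the 4 summits differed by a median of 11 bp, and in 82.1% they lay within 50 bp of one another. The median difference between libraries was thus smaller than the 50 bp bins in which the summits are plotted, though not every member was within that width.

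**Figure D3:**
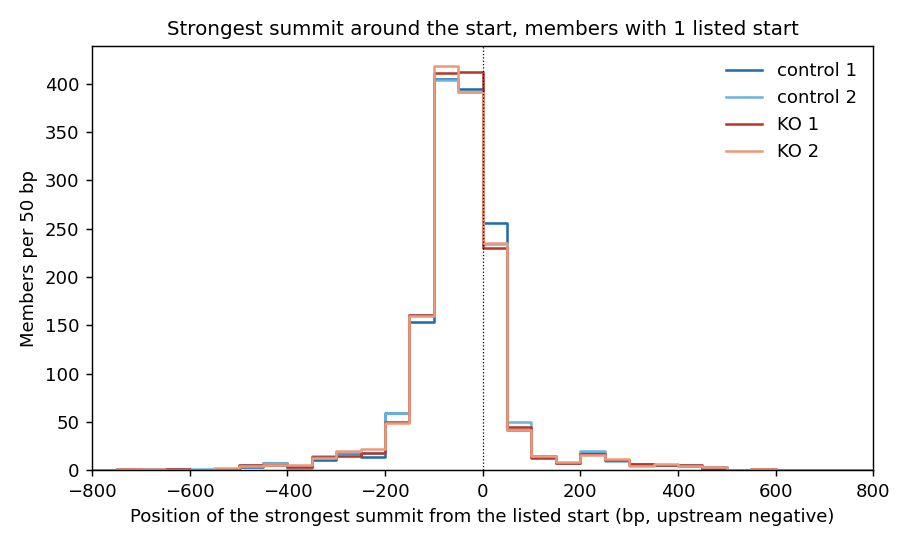
Number of members per 50 bp (vertical axis) by the position of the strongest summit relative to the listed start (horizontal axis, bp, upstream negative), for the 1439 members with 1 listed start, 1 line per library. The 4 lines lie nearly on top of each other, with their highest bins in the 100 bp before the start.

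Starts in members were often paired head to head. A start was counted as paired when the start of another gene on the opposite strand lay within 1000 bp upstream, and 859 of the 2717 starts in members (31.6%) were. The share was 17.7% for starts in other regions of all 4 libraries, 3.94% for starts in neither and 11.4% over all 32619 listed starts. Of the 2015 members with a start, 437 (21.7%) held starts on both strands. Psma2 with Mrpl32, and Swt1 with Trmt1l, a pair that is described below, are examples.

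In base composition the members resembled other open starts. The 300 bp windows at starts in members had a median of 61.3% G+C and 23 CpG, those in other regions of all 4 libraries 61.7% and 20 CpG, and those in neither 47.3% and 3 CpG. Short motifs differed more. A match to the ETS letters CCGGAAG was found in 752 windows in members (27.7%), against 14.1% in the other regions of all 4 libraries and 8.92% of all listed starts. The CCAAT box of NFY was matched in 48.1%, 33.5% and 37.6% in the same order. SP/KLF letters were matched in 72.2%, 63.1% and 35.9%, NRF1 letters in 9.64%, 5.42% and 3.59%, CRE letters in 7.66%, 4.94% and 3.23%, and YY1 letters in 10.3%, 5.73% and 6.37%. A match is a run of letters on either strand and not a measured binding site. The shares are of windows and not of members, and windows of neighboring starts can hold the same match. Starts paired head to head were more frequent in members (31.6%) than in the other regions (17.7%), and the shares are not corrected for this.

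In the same start windows the letters of PU.1, RUNX, GATA and AP-1 were not more frequent in members, while those of the E-box were. The PU.1 letters GAGGAAG, which share GGAAG with the ETS letters, were matched in 11.7% of windows in members, 14.7% in the other regions and 13.4% of all starts. For the RUNX letters TGTGGTT the shares were 3.35%, 3.98% and 5.29%. Those of GATA, written AGATAA, were matched in 4.97%, 5.91% and 11.2%. The AP-1 site TGANTCA, bound by FOS and JUN, had 3.50%, 4.98% and 7.85%. The short CTCF core CTNGTGG was matched in 15.2%, 16.7% and 15.1%, and the E-box CACGTG of MYC and USF in 11.3%, 9.92% and 7.20%. At least 1 of the 6 motifs marked in the sequences above was present in 91.8% of windows in members, in 82.8% of those in other regions and in 51.4% of those in neither. Members without a listed start, among them 287 of the 401 over 1 kb from a gene end, were not analysed for sequence here.

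**Figure D4:**
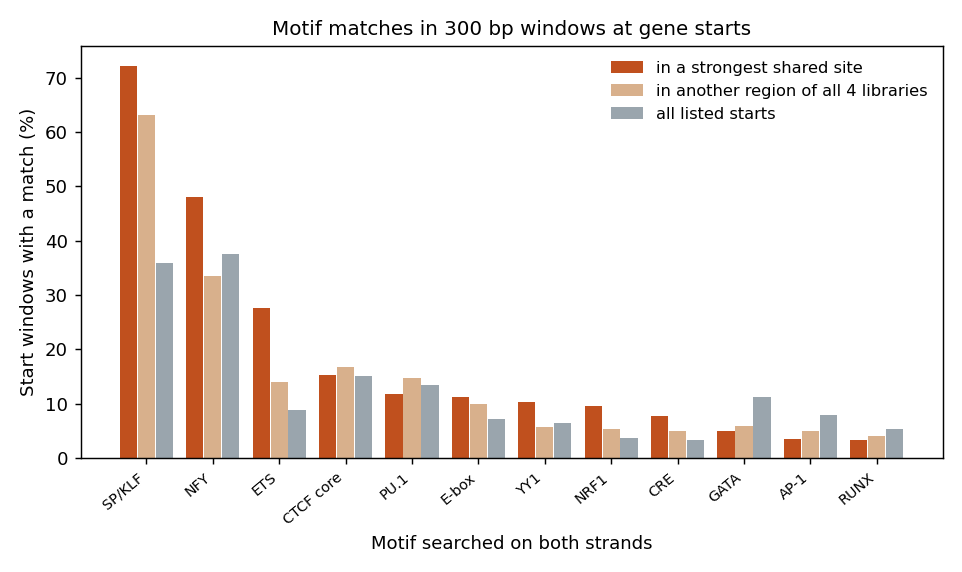
Share of 300 bp start windows with at least 1 match to each motif (vertical axis, percent), for starts in members (orange), in other regions of all 4 libraries (tan) and for all listed starts (gray). The bars of members are the highest of the 3 for SP/KLF, NFY, ETS, E-box, YY1, NRF1 and CRE, and the lowest for PU.1, GATA, AP-1 and RUNX.

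Of 21631 protein-coding genes, 2648 (12.2%) had a member within 1 kb of a gene end, and this share is the background for each list below. For direction by rank, the background is that of all regions of 4 libraries within 1 kb of a gene end, of which 21.4% had both KO libraries first and 16% both controls. Those regions were ranked among all regions of 4 libraries, whereas the members of the lists were ranked among the members. Of the members within 1 kb of a gene end, 18.1% had both KO libraries first and 16.4% both controls. Neighboring genes can share a member, so genes of a list are not independent of each other. Proteasome subunits had the highest share, with 18 of 31 genes (58.1%). In the member of Psma2 the folds were 29.8 and 29.4 in the controls against 27.1 and 27.6 in the KO libraries, and in that of Psmd4, a ubiquitin receptor of the proteasome, 24.6 and 24.8 against 24.7 and 21.9. Psmc4, an ATPase of the 19S particle, had 22.1 and 22.8 against 24.4 and 24.9. Both control libraries ranked first at Psma2 and both KO libraries at Psmc4, and over the list 4 genes had the KO libraries first, 6 the controls and 8 neither, beside the background of 21.4% and 16%. The members at Psma6 and Psma3 hold a listed start of these genes but lie farther than 1 kb from the ends of their RefSeq spans, and are not in the count.

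Subunits of oxidative phosphorylation, the respiratory complexes and the ATP synthase, followed with 30 of 61 genes (49.2%). Ndufb3 had folds of 27.8 and 27.5 in the controls against 24.2 and 24.5 in the KO libraries. At Atp5g2, a gene of the c-ring of ATP synthase, they were 25.6 and 23.7 against 26.4 and 22.3, and at Ndufa6 of complex I they were 23.6 and 27.4 against 23.8 and 23.6. The genotypes did not overlap at Ndufb3 and did at the other two. At Sdha, the flavoprotein of complex II, the folds were 26.5 and 25.7 against 28.5 and 18.7, so the KO libraries lay on either side of the controls. In the whole list 4 genes had the KO libraries first by rank, 5 the controls and 21 neither, again beside 21.4% and 16%.

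Ribosomal proteins of the cytosol had a member at 24 of 57 genes (42.1%), with 4 KO first, 4 control first and 16 overlapping (background 21.4% and 16%). The best placed were Rpl37, with folds of 24.9 and 26.3 in the controls against 25.0 and 24.2 in the KO libraries, and Rps12, with 29.0 and 28.5 against 24.1 and 22.6. Cell cycle genes had 14 of 37 (37.8%), with none KO first, 1 control first (Aurka, a mitotic kinase) and 13 overlapping, beside the same background. Ccna2, the cyclin of S phase, had 21.8 and 23.2 in the controls against 23.1 and 23.3 in the KO libraries, and Ccnb1 had 22.9 and 22.6 against 24.2 and 19.9. Splicing factors had 10 of 41 (24.4%), of which Snrnp70, a protein of the U1 particle, was the best placed (23.6 and 23.2 against 22.7 and 22.6), with 1 KO first, 5 control first and 4 overlapping, where 21.4% and 16% is the background. Ctcf and cohesin genes had 3 of 10, namely Smc3, Pds5b and Wapl, all overlapping. After its values were seen, the family of Zfp genes (zinc finger proteins) was counted as well, with a member at 73 of 397 (18.4%), and that of Olfr genes (odorant receptors) with 0 of 1110.

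Fatty acid oxidation, the pathway in which Cpt1a loads long-chain fatty acids for import into mitochondria, had a member at 4 of 27 genes (14.8%), close to the background of 12.2%. Etfa and Etfdh pass electrons from fatty acid oxidation to the respiratory chain. Etfa had folds of 22.3 and 19.8 in the controls against 23.9 and 22.0 in the KO libraries, and Etfdh 19.8 and 22.7 against 21.3 and 19.8. Acad9, an acyl-CoA dehydrogenase that also serves the assembly of complex I, had 18.9 and 17.9 against 21.5 and 21.7. Hadh, a dehydrogenase for shorter chains, had 17.9 and 17.7 against 21.1 and 16.9, and its KO libraries lay on either side of the controls by fold. By rank 3 of the 4, Etfa, Acad9 and Hadh, had both KO libraries first and Etfdh overlapped, and 21.4% of all regions of 4 libraries at gene ends had both KO libraries first. With 4 genes nothing is read from this count. The folds of the genotypes did not overlap at Acad9 alone. A member also holds the start of Eci2, more than 1 kb from its gene ends and not counted.

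Cpt1a itself, on chromosome 19 (chr19:3322326-3385735), had 0 members within 5 kb. The strongest region of all 4 libraries there (chr19:3359607-3360585), inside the gene and 12284 bp from its nearest end, had folds of 13.5 and 15.8 in the controls against 14.2 and 10.5 in the KO libraries. Among the 80271 regions of all 4 libraries these were ranks 10276, 6324, 8967 and 14407, so it fell short of the members in every library. The deleted part of the gene is not given in the sources used here, and these lists do not check the genotype.

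None of 8 stem cell marker genes and none of 31 blood transcription factors had a member within 1 kb of a gene end. All 8 of the former and 28 of the latter had a region of all 4 libraries there. The genes given next were chosen after their values were seen, and the values are those of the strongest such region of each. Kit, the stem cell factor receptor, had folds of 14.6 and 16.0 in the controls against 16.2 and 14.3 in the KO libraries, and Hlf had 15.0 and 13.7 against 14.7 and 12.3. Meis1 had 14.2 and 12.4 against 12.9 and 11.4, and Mecom 12.8 and 9.98 against 10.4 and 9.97. Slamf1, which encodes CD150, had 4.21 and 4.78 against 7.03 and 4.81. All of these are below the lowest fold that entered the 5000 in the same library. Farther away, Hlf is the gene nearest to a member 26794 bp from its end, with folds of 20.3 and 18.7 in the controls against 20.5 and 22.1 in the KO libraries, and Ets2, of the blood transcription factors, is nearest to one 7518 bp away.

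Among the markers of other blood cells, 1 gene had a member, Ermap of the erythroid list, whose gene end lay 997 bp away. Its folds were 22.1 and 25.1 in the controls against 23.8 and 22.0 in the KO libraries. A region of all 4 libraries within 1 kb of a gene end was present for 3 of 6 T cell, 4 of 5 B cell, 4 of 5 neutrophil, 4 of 5 erythroid, 3 of 4 megakaryocyte, 1 of 4 mast cell and 3 of 5 non-blood marker genes. For the stem cell markers it was 8 of 8, the highest share of these lists. The lists are small and markers of other cells had such regions too, so presence of a region alone does not identify the cell type. Outside the naming rule, Klf1, the erythroid transcription factor, came close to a member, with folds of 21.3 and 18.6 in the controls, 18.3 in KO 1, and 16.2 in KO 2, under the 16.5 that entered there.

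Between libraries the order of the members was moderately alike. Spearman's rho of the ranks over the 2688 members, given as a description, was 0.61 between the controls, 0.53 between the KO libraries and 0.51 to 0.60 between a control and a KO library. The members share libraries and base composition, and their range of fold is limited by the choice. With each library's folds divided by their median over the members, the absolute log2 difference between KO and control had a median of 0.067, and single libraries differed by 0.089 between the controls and by 0.10 between the KO libraries. A difference of means of 2 libraries is smaller than one of single libraries by averaging alone, so these values are not set against each other. The signed difference between the genotypes ran from −0.62 to 0.38.

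Ranks put both KO libraries before both controls at 452 members (16.8%) and both controls before both KO libraries at 472 (17.6%). Over all 80271 regions of 4 libraries, ranked among themselves, the shares were 19.2% and 18.5%, so neither direction was more frequent in the members than in the background. Ranks were set among the members, so the shares at gene ends and away from them are not independent of each other. Of the 2287 at gene ends, 413 (18.1%) had the KO libraries first and 375 (16.4%) the controls, where the background of regions at gene ends was 21.4% and 16%. Of the 401 over 1 kb away, 39 (9.73%) had the KO libraries first and 97 (24.2%) the controls, against 18.4% and 19.4% of all regions over 1 kb away. Of the 367 of these that were 450 bp or wider, 34 (9.26%) had the KO libraries first and 90 (24.5%) the controls. The fold chose the members, so these shares are a description. KO 2 had the lowest median −log10 p over the members as a whole. With KO 2 left out and the members chosen anew, the shares over 1 kb away were 29.4% KO first and 39.0% control first. Fewer libraries can overlap less, so both shares are larger by construction, and the part of KO 2 in the shares was not tested further.

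**Figure D5:**
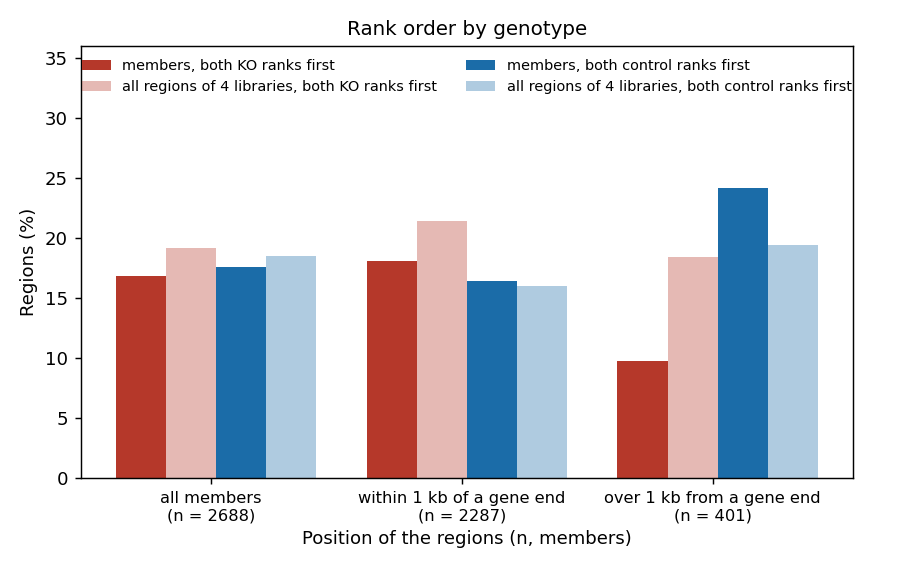
Share of regions (vertical axis, percent) with both KO ranks first (red) or both control ranks first (blue), in members (dark) and in all regions of 4 libraries of the same position (pale). In members over 1 kb from a gene end the dark blue bar is at 24.2% and the dark red bar at 9.73%, while the pale bars are at 19.4% and 18.4%.

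The widest gap in favor of the KO libraries was at Akr1a1, with folds of 18.0 and 18.3 in the controls against 23.2 and 22.6 in the KO libraries. That moved it from places 2638 and 2470 to 730 and 449, a gap of 1740 places. Wasf2, an actin regulator of the WAVE complex, had 19.1 and 17.5 against 22.4 and 20.9. In the member shared by Swt1 and Trmt1l the folds were 19.2 and 18.7 against 22.2 and 22.3, in that of Hook1 and 9530080O11Rik 19.1 and 18.7 against 22.0 and 20.9, and in that of Prpf3, a splicing factor, 19.4 and 18.7 against 22.8 and 20.6. These members overlapped a gene end and were between 930 and 1269 bp wide.

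In favor of the controls the widest gap, 1912 places, was at Lztr1, with folds of 23.4 and 24.2 in the controls against 18.3 and 17.0 in the KO libraries. The next 3 were away from gene ends. A region 6805 bp from the pseudogene Gm6916 had 26.6 and 24.4 in the controls against 19.6 and 17.4 in the KO libraries. A region 10298 bp from Itih5, a gene of the extracellular matrix, had 23.5 and 25.1 against 18.2 and 17.9, and one inside the noncoding Gm19708, 9677 bp from Dapp1, an adaptor of B cell signaling, 24.1 and 24.5 against 19.8 and 18.1. Thada had 22.8 and 21.2 against 18.0 and 16.6, and Atrip, a partner of the ATR kinase, 23.8 and 25.0 against 20.0 and 18.6. At each of these members with the widest gaps, in either direction, the folds of the genotypes did not overlap, and they were picked for their gap in ranks. In members with a start, median G+C of the start windows was 62.3% where the KO libraries ranked first, 60.3% where the controls did and 61.0% where they overlapped.

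The intervals called at the members were narrower in the KO libraries. The bases covered by a library's own intervals within a member had a median of 901 and 904 bp in the controls against 797 and 834 bp in the KO libraries. Both KO widths were below both control widths at 1216 members (45.2%), and the reverse was true at 97 (3.61%). The background over all regions of 4 libraries was 35.8% and 6.85%, with medians of 396 and 382 bp in the controls against 301 and 326 bp in the KO libraries, so narrower KO intervals were a feature of the lists as a whole. Among members within 1 kb of a gene end the share was 45.2%, and among those farther away 45.6%. In the 39 members under 450 bp it was 28.2%, with medians of 302 and 292 bp in the controls against 302 and 293 bp in the KO libraries. The part of sequencing depth in these widths was not tested, and the lists give no reads to test it with.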

How the data were processed

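ATAC-Seq was analysed in 4 libraries of sorted bone marrow cells, 2 control and 2 KO, grouped by the labels. The submitters' processing notes name Bowtie2, MACS2 and the build mm10, without versions. For each library the authors deposited a list of peaks with 1 row per summit, called on that library alone. The lists give the fold at the summit, a ratio to the background of the same library, as the authors computed it. The authors also deposited the −log10 p and the −log10 q of each summit. No read counts are given, so depth is unknown and no interval for a fold can be made. A summit written as a chromosome position rather than an offset (253 to 492 rows a list) was taken as that position. Any rows off the autosomes and chromosome X were set aside before the peak numbers, which follow the −log10 p, were counted. From 365 to 407 numbers per list were not among the remaining rows, and of the first 100 numbers 47 to 55 were. How many of the missing numbers belong to rows set aside was not counted. Summits with the other numbers were not analysed here.

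Regions were merged, ranked and annotated in Python 3.11.15 with numpy 2.4.6, pandas 2.3.3 and scipy 1.17.1. Gene positions (49554 genes, no strand) and start windows (32619 starts, covering 79.9% of protein-coding genes) came from RefSeq, GRCm38.p6, and all 337 gene names of 16 lists matched. A member's fold in a library was the highest of its summits. Ranks were set within each library among the members, or among all regions of 4 libraries for the background. The procedure was tested on simulated lists with planted regions. Exact 95% binomial intervals cover counting error only.

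Named were the 12 members with the lowest sum of ranks, the 6 of each direction with the widest gap in ranks (1 is not reported here), the 3 on each side of the width limit, Cpt1a, up to 6 of the best placed genes of each list, the widest spacing and the densest chromosome. Members and lists were chosen with earlier results of these data known. Alternatives changed the number of rows, their ordering, the merging, the width limit, the chromosomes, the distance to a gene end and the libraries.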

Additional observations from a re-analysis of the deposited data

How the results depend on the processing

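The number of members followed the number of rows taken and the width limit, with 1151 at 2500 rows, 5539 at 10000 rows and 1424 at 1000 bp, and was 2936 to 3020 when a library was left out. Members with the KO libraries first by rank numbered 179, 982 and 225 under the first 3 of these, and those with the controls first 177, 952 and 249. With 1 library left out, 3 libraries can overlap less, and the counts were 952 to 1026 and 972 to 1044. The share within 1 kb of a gene end was 80.1% at 10000 rows, 91.4% when rows were ordered by −log10 p, 78.8% at 1000 bp, 81.9% with protein-coding genes only, and 83.5% and 90.1% for distances of 500 bp and 5 kb, and with a library left out it was 83.4% to 85.0%. The median width was 856 bp under the limit of 1000 bp and 216 bp for windows of 100 bp on each side of summits, by construction, and 950 to 977.5 bp with a library left out.

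The shares by genotype over 1 kb from a gene end were followed after seeing the data. They were moved from the main values by ordering rows by −log10 p, to 15.4% with the controls first, and by leaving out a library, to 24.9% to 29.4% with the KO libraries first and 39.0% to 40.7% with the controls first. In each setting run the control share was larger than the KO share. With rows ordered by −log10 p the shares were 11.2% KO first and 15.4% control first. Both were below the 18.4% and 19.4% of all regions over 1 kb from a gene end, so an excess over that background did not hold in each setting. The cause of these shifts other than those by construction was not tested. No paired analysis was possible because no result comes from a test between groups and the replicate numbers of the labels are not stated to pair libraries. Leaving out 1 library leaves a genotype with 1, and depth, which the lists do not give, limits every fold.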
